A study of Mus musculus with 36 samples.

Results

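The 9 genes described here pass hormone signals through receptors and cyclic AMP in the liver. They are the receptors Gcgr, Adra1b and Avpr1a, the phosphodiesterases Pde3b and Pde4b, the CREB coactivator Crtc2, the kinase Sik1, the transcription factor Crem and the nuclear receptor Nr4a1. They were chosen by name, with earlier results of these data known. Every array probe annotated with one of these gene names was taken. Of 56605 probes on the array, 21 carried such a name, and 17 of the 21 passed the filter on dim probes and were tested among 34771 probes of 22928 genes. Each gene was read by its brightest tested probe, called here its main probe. The main probes of all 9 genes were well above background on all 36 arrays, so none entered the test through only the groups where it was high.

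Gene expression was measured in the livers of 36 male mice, 11 weeks old, eating standard chow ad libitum and given no treatment according to the labels. Each mouse gave 1 array, and each of 6 groups held 6 mice. The knockouts (IRLKO) had a tamoxifen-inducible, hepatocyte-specific deletion of the insulin receptor: exon 4 of the gene was flanked by LoxP sites and Cre was driven in liver by the transthyretin promoter (TTR-CreTam, C57BL/6J). Their controls (IRLWT) came from the same crosses, and the sources used here do not give the time of tamoxifen or whether controls carried Cre. Livers were sampled at zeitgeber time 8 (ZT8, in the light phase), at ZT12, when lights went off, and at ZT16, in the dark phase. A hepatocyte deletion leaves the receptor in the other cells of the liver.

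Glucagon binds a receptor that couples through Gs to adenylyl cyclase. The cyclic AMP it makes activates protein kinase A, which phosphorylates CREB and switches off the salt-inducible kinases, so that CRTC coactivators enter the nucleus and genes of gluconeogenesis are transcribed. Alpha-1 adrenergic and vasopressin V1a receptors couple instead through Gq to calcium, which activates phosphorylase kinase and glycogen breakdown. Phosphodiesterases destroy cyclic AMP, and PDE3B is an isoform that insulin activates. CREM and SIK1 are themselves induced by cyclic AMP and restrain the response.

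Levels are given as log2 of the processed spot signal after subtraction of the array's 75th percentile signal (P75), so a level of 0 equals P75 and 1 unit is a doubling. P75 itself lay between 311 and 525 intensity units, 53.7% to 63.1% of spots per array were well above background, and no spot was saturated. Ratios of knockout to control are log2 differences from a limma fit of 6 group means and 3 wash batches, each of which held all 6 groups. A difference is called where the Benjamini-Hochberg adjusted p over all tested probes was under 0.05. As the check of the targeted gene, the main Insr probe was lower in knockouts by -1.77, -1.88 and -1.65 at ZT8, ZT12 and ZT16, which left 29.3%, 27.2% and 31.8% of the control signal, with no overlap between groups. A dimmer Insr probe, A_52_P6490, left 51.9%, 36.2% and 66.2%, with groups that overlapped at ZT16. Where in the gene these probes lie relative to exon 4 was not analysed here. The array of knockout replicate 3 at ZT8 stood apart. It gave the lowest value of its group for 6 of the 9 genes (Gcgr, Adra1b, Crem, Sik1, Crtc2 and Pde3b), and the ZT8 ratio of each of the 9 genes is therefore also given without it. Without it the main Insr ratio at ZT8 was -1.67. Within wash batches a ratio rests on 1 to 3 arrays a group. Single arrays were knockout replicate 5 at ZT8 in batch 2, knockout replicate 6 at ZT12 in batch 3 and control replicate 6 at ZT16 in batch 1, so within-batch ranges include values that rest on 1 mouse.

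Most of the 9 genes differed between genotypes, 6 in the direction of a higher level in knockouts. At ZT8, 6 of the 9 were called, against 34.9% of all genes. Crem, Sik1, Crtc2 and Nr4a1 were higher in knockouts (4 genes, against 16.5% of all genes), and Gcgr and Adra1b were lower (2 genes, against 18.5%). When knockout replicate 3 was left out, 5 of the 9 were called at ZT8, all of these but Gcgr. At ZT12 all 9 were called (41.6% of all genes), with 6 higher (19.3% of all genes) and Gcgr, Adra1b and Pde3b lower (22.3%). At ZT16, 8 were called (39.4%): the same 6 genes were higher (19.7%), Adra1b and Pde3b were lower (19.7%), and Gcgr was not called. The 2 sets of 6 arrays did not overlap for 4 genes at ZT8 (15.5% of all genes), 8 at ZT12 (21.4%) and 6 at ZT16 (19.3%). The median log2 ratio over the 9 genes was 0.24, 0.81 and 0.56, beside medians of 0.0070, -0.017 and 0.0029 over all genes. The RNA came from whole liver, so fewer cells of a type and less RNA per cell cannot be told apart.

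**Figure D1:**
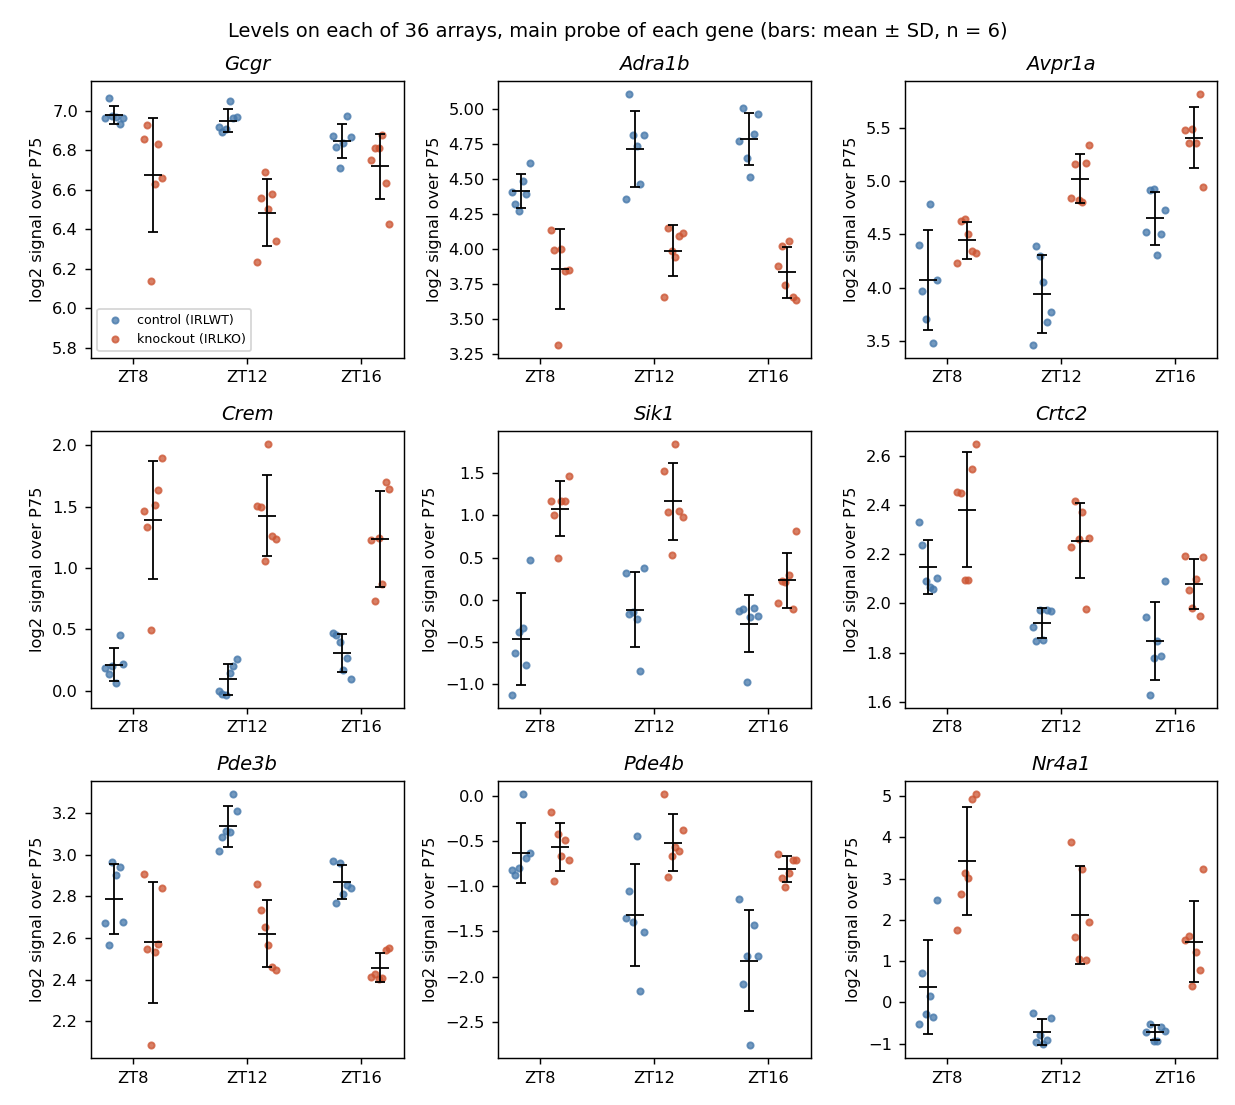
Level of each gene on every array (y axis, log2 signal over P75, a separate scale for each gene) at ZT8, ZT12 and ZT16. Blue points are controls, red points knockouts, and bars are the mean and SD of 6 mice. The knockout and control points are fully apart at all 3 times for Adra1b and Crem, and the knockout points of Nr4a1 spread from 1.76 to 5.06 at ZT8.

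Gcgr, the glucagon receptor, was modestly lower in knockouts at ZT8 and ZT12. Its probe lies at chr11:120400221-120400280 (mm9, as are all probe positions here). Control levels ran from 6.93 to 7.06 (median 6.97) at ZT8, 6.89 to 7.05 (median 6.94) at ZT12 and 6.71 to 6.97 (median 6.85) at ZT16. In knockouts they ran from 6.14 to 6.93 (median 6.75), 6.23 to 6.69 (median 6.53) and 6.43 to 6.88 (median 6.78). The knockouts all lay below the controls at ZT8 and ZT12, and the groups overlapped at ZT16. At ZT8 they barely missed each other, with the highest knockout at 6.928 and the lowest control at 6.931. The log2 ratio was -0.30 (SE 0.097, adjusted p 0.0149) at ZT8 and -0.46 (SE 0.097, adjusted p 0.000312) at ZT12, which is 1.23-fold and 1.38-fold lower. At ZT16 it was -0.12 (SE 0.097, adjusted p 0.362), with a 95% interval of -0.31 to 0.081. Without knockout replicate 3, the ZT8 ratio of Gcgr was -0.19 (adjusted p 0.0624), which was not called, and with only the 2 groups compared in the fit it was -0.30 (adjusted p 0.121). Quantile normalization and normexp background correction both gave -0.48 at ZT8. They also called Gcgr at ZT16 (-0.25, adjusted p 0.00214, and -0.24, adjusted p 0.00245), while in the authors' processed values the ZT16 ratio was -0.0049 (adjusted p 0.963). Within the wash batches the Gcgr ratio ran from -0.46 to -0.13 at ZT8, -0.59 to -0.39 at ZT12 and -0.25 to -0.029 at ZT16.

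Adra1b encodes the alpha-1B adrenergic receptor, through which catecholamines raise calcium in hepatocytes, and it was lower in knockouts at all 3 times. Its probe is at chr11:43588814-43588873. Control levels ran from 4.27 to 4.61 (median 4.40) at ZT8, 4.36 to 5.11 (median 4.77) at ZT12 and 4.51 to 5.01 (median 4.79) at ZT16. The knockout levels were 3.32 to 4.14 (median 3.92), 3.65 to 4.15 (median 4.04) and 3.63 to 4.06 (median 3.81). No knockout array reached the lowest control array of its time. The log2 ratios were -0.59 (SE 0.11, adjusted p 9.04e-05), -0.70 (SE 0.11, adjusted p 6.61e-06) and -0.91 (SE 0.11, adjusted p 8.20e-08), or 1.5-, 1.62- and 1.88-fold lower. Leaving out knockout replicate 3 gave -0.50 (adjusted p 0.000376) at ZT8. Within wash batches Adra1b ran from -0.71 to -0.50, from -0.84 to -0.58 and from -1.27 to -0.74 at the 3 times, so it was below 0 in every batch. In controls Adra1b rose by 0.33 from ZT8 to ZT16 (adjusted p 0.0244), a call lost without replicate 2 or 6 of controls at ZT16 or replicate 3 or 4 of controls at ZT8, and with slide as a fixed block (0.28, adjusted p 0.0516). In knockouts the same change was 0.0050 (SE 0.11, adjusted p 0.982), and the difference between the genotypes was -0.32 (SE 0.15, adjusted p 0.212), which was not called.

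Avpr1a, the vasopressin V1a receptor and also a Gq-coupled receptor, went the other way and was higher in knockouts at ZT12 and ZT16. Its probe is at chr10:121890416-121890475. Controls ranged from 3.48 to 4.78 (median 4.02) at ZT8, 3.47 to 4.39 (median 3.91) at ZT12 and 4.31 to 4.92 (median 4.62) at ZT16. Knockouts ranged from 4.23 to 4.64 (median 4.42), 4.80 to 5.33 (median 5.0) and 4.94 to 5.82 (median 5.42) at the same times. The groups overlapped at ZT8 and were fully apart at ZT12 and ZT16. Ratios were 0.37 (SE 0.17, adjusted p 0.0992) at ZT8, 1.08 (SE 0.17, adjusted p 1.18e-05) at ZT12 and 0.79 (SE 0.17, adjusted p 0.000642) at ZT16, the called ones being 2.11- and 1.72-fold higher. At ZT8 the Avpr1a ratio was called without control replicate 4 (0.52, adjusted p 0.0185) and with slide as a fixed block (0.46, adjusted p 0.0279), and without knockout replicate 3 it was 0.30 (adjusted p 0.212). Within wash batches it ran from -0.077 to 0.91 at ZT8, 1.05 to 1.25 at ZT12 and 0.49 to 0.93 at ZT16.

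Avpr1a was the only gene of the 9 called as rising from ZT8 to ZT16 in both genotypes. From ZT8 to ZT16 it rose by 0.55 (SE 0.17, adjusted p 0.0191) in controls and by 0.96 (SE 0.17, adjusted p 8.08e-05) in knockouts. The knockout rise was already called from ZT8 to ZT12, at 0.58 (SE 0.18, adjusted p 0.0299), and the control rise came between ZT12 and ZT16, at 0.67 (SE 0.17, adjusted p 0.0287). The difference in the ZT16 minus ZT8 change was 0.41 (SE 0.25, adjusted p 0.349) and was not called. The knockout levels at ZT8 lay wholly below those at ZT12 and ZT16, while the control groups overlapped between times. The step in knockouts from ZT8 to ZT12 lost its call without any of replicates 5 and 6 at ZT12 or 1, 5 and 6 at ZT8, and with quantile normalization, normexp, no filter on dim probes or only the compared groups in the fit (adjusted p 0.0541 to 0.0672). The control step from ZT12 to ZT16 lost its call without any of 6 arrays (replicates 1, 5 and 6 at ZT12, and 2, 3 and 6 at ZT16), and with slide as a fixed block (0.50, adjusted p 0.166), no filter or only the compared groups. The control rise from ZT8 to ZT16 lost it without replicate 3 or 5 at ZT8 or 3 or 6 at ZT16, and with only the compared groups in the fit (adjusted p 0.0970).

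**Figure D2:**
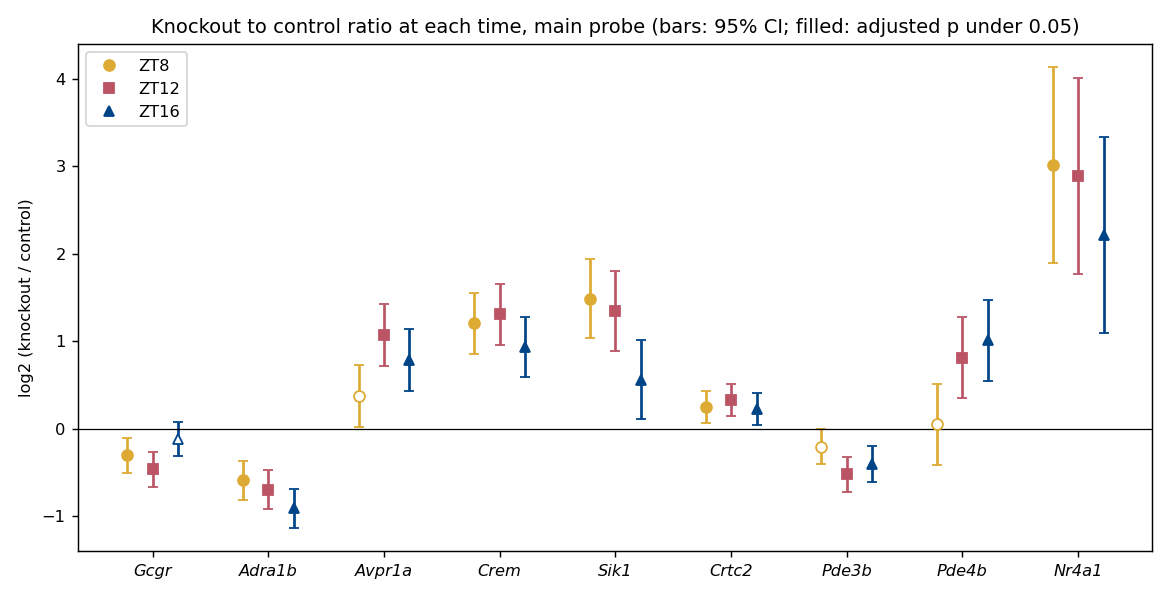
Log2 ratio of knockout to control (y axis) for the main probe of each gene at ZT8 (circles), ZT12 (squares) and ZT16 (triangles). Bars are 95% confidence intervals of the limma fit, filled symbols have an adjusted p under 0.05, and the line marks no difference. Nr4a1 has the highest ratios, from 2.21 to 3.01, and Adra1b the lowest, down to -0.91.

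The phosphodiesterases Pde3b and Pde4b differed in opposite directions. Pde3b, the insulin-activated isoform of hepatocytes and fat cells, was lower in knockouts at ZT12 and ZT16. Its main probe is at chr7:121681370-121681429. Control arrays gave 2.57 to 2.96 (median 2.79), 3.02 to 3.29 (median 3.11) and 2.77 to 2.97 (median 2.85) at ZT8, ZT12 and ZT16. Knockout arrays gave 2.08 to 2.91 (median 2.56), 2.45 to 2.86 (median 2.61) and 2.40 to 2.55 (median 2.42). The groups overlapped at ZT8 and were apart at both later times. The ratios of Pde3b were -0.20 (SE 0.099, adjusted p 0.112), -0.52 (SE 0.099, adjusted p 0.000108) and -0.40 (SE 0.099, adjusted p 0.00181), the called ones 1.43- and 1.32-fold lower. Without knockout replicate 3 the ZT8 ratio of Pde3b was -0.10 (adjusted p 0.393), and without knockout replicate 1 it was called (-0.27, adjusted p 0.0341). Within wash batches it lay at -0.44 to -0.031, at -0.70 to -0.30 and at -0.49 to -0.36, below 0 in every batch at each time. In controls Pde3b rose by 0.35 (SE 0.098, adjusted p 0.0148) from ZT8 to ZT12, with no overlap between those groups, and in knockouts the same change was 0.036 (SE 0.10, adjusted p 0.874). With the mean of its probes the control rise was 0.23 (adjusted p 0.175). Pde3b probe A_66_P130720 gave ratios of 0.025, -0.30 (SE 0.085, adjusted p 0.00543) and -0.30 (SE 0.085, adjusted p 0.00689). Its control levels rose from -1.82 to -1.52 at ZT8 to between -1.46 and -1.12 at ZT12, without overlap, as on the main probe. The dim probe A_55_P2151591, well above background on 31 arrays, was not called at any time.

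Pde4b, a cyclic AMP-specific phosphodiesterase that is abundant in immune cells, was called as higher in knockouts at ZT12 and ZT16, and its level fell with time in controls. On the main probe (chr4:102279393-102279452) the control arrays gave -0.87 to 0.021 (median -0.74) at ZT8, -2.16 to -0.44 (median -1.37) at ZT12 and -2.76 to -1.14 (median -1.77) at ZT16. Knockout levels were -0.94 to -0.18 (median -0.57), -0.89 to 0.023 (median -0.59) and -1.01 to -0.64 (median -0.78). The control arrays at ZT16 all lay below those at ZT8, and the 3 knockout groups overlapped each other. Pde4b fell by 1.19 (SE 0.23, adjusted p 0.000192) from ZT8 to ZT16 in controls, which is 2.27-fold, and the change in knockouts was -0.23 (SE 0.23, adjusted p 0.516). The knockout to control ratio was 0.052 (SE 0.23, adjusted p 0.887) at ZT8, with a 95% interval of -0.41 to 0.52, and without knockout replicate 3 it was 0.031 (adjusted p 0.938). It was 0.81 (SE 0.23, adjusted p 0.00519) at ZT12 and 1.01 (SE 0.23, adjusted p 0.000769) at ZT16, or 1.76- and 2.01-fold higher. Within wash batches these ratios ran from -0.21 to 0.32, 0.58 to 1.09 and 0.78 to 1.21.

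The change of the Pde4b ratio from ZT8 to ZT16 was 0.96 (SE 0.32, adjusted p 0.0603) on the main probe, just above the threshold, and it passed without any of 5 arrays (replicates 4 and 5 of controls at ZT12, 1 and 5 of controls at ZT16, and 1 of knockouts at ZT8) and with the test run on probes well above background on all arrays (adjusted p 0.0451). On probe A_52_P423247, at chr4:102277888-102277947, it was 0.98 (SE 0.25, adjusted p 0.0125) and was called. That probe gave control levels of -2.23 to -1.52 (median -1.99), -3.53 to -1.98 (median -2.68) and -3.66 to -2.57 (median -2.72). Its knockout levels were -2.13 to -1.85 (median -1.99), -2.22 to -1.74 (median -1.96) and -2.20 to -1.83 (median -2.05). As on the main probe, every control array at ZT16 lay below every control array at ZT8. Its ratios were -0.086, 0.70 (SE 0.18, adjusted p 0.00249) and 0.89 (SE 0.18, adjusted p 0.000216). A Pde4b probe to another transcript, A_55_P2107542, was called at ZT12 (1.09) and ZT16 (0.84), but only 5 of 6 control arrays at ZT12 and 3 of 6 at ZT16 were well above background on it. Only part of the control groups was therefore measured with it. The other 3 Pde4b probes were at background on nearly all arrays and were not tested. Markers of other liver cells stand beside this result, to be read against the 16.5%, 19.3% and 19.7% of all genes that were higher and the 18.5%, 22.3% and 19.7% that were lower at the 3 times. Of the 7 endothelial cell markers measured, 0, 6 and 5 were higher in knockouts at ZT8, ZT12 and ZT16 and none was lower. The log2 of their summed signal, which the brightest genes weigh most on, had medians of 5.01, 4.74 and 4.89 in controls (4.63 to 5.30 over all times) and 4.99, 5.28 and 5.37 in knockouts (4.73 to 5.53). Of 9 macrophage markers 2, 5 and 3 were higher and none lower, with medians of the sum of 5.96, 6.03 and 6.14 in controls (5.28 to 7.35) and 7.03, 7.24 and 6.79 in knockouts (6.09 to 8.36). Of 6 lymphocyte and leukocyte markers tested, 3, 4 and 4 were higher and 1, 2 and 1 lower. Their sum went the other way, with medians of 3.60, 3.49 and 3.66 in controls (3.33 to 3.8) and 3.44, 3.25 and 3.32 in knockouts (3.15 to 3.66), and its brightest gene Ptprc, the leukocyte surface phosphatase CD45, had ratios of -0.29, -0.30 and -0.48. The part of these cells in the Pde4b result was not tested.

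**Figure D3:**
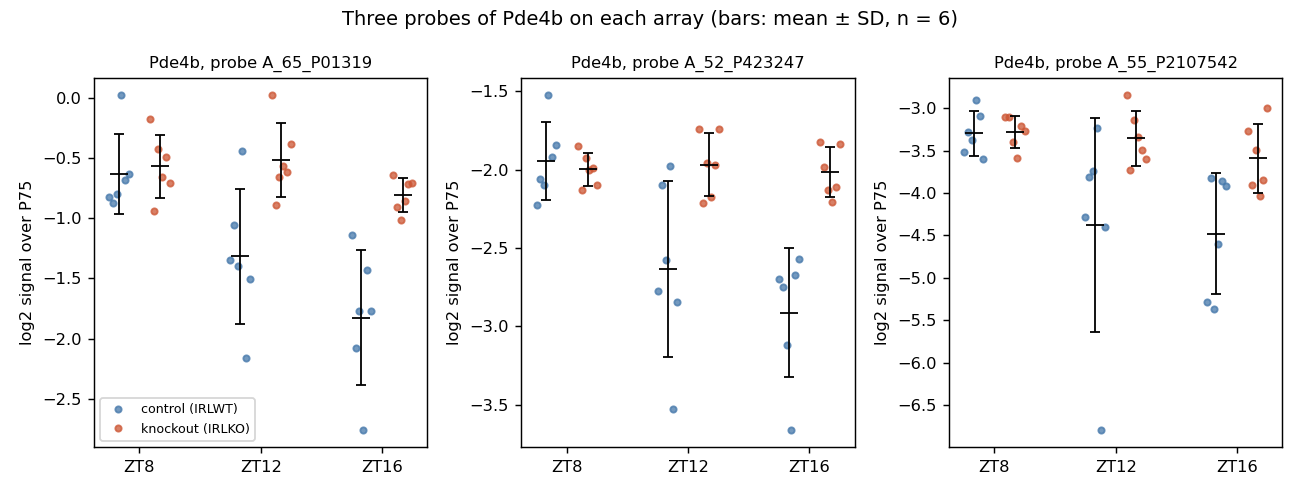
Levels of 3 Pde4b probes (y axis, log2 signal over P75, a separate scale for each) on every array, with controls in blue, knockouts in red and bars for the mean and SD of 6 mice. On all 3 probes the groups lie together at ZT8, and the controls spread downward at ZT12 and ZT16; on the right-hand probe 3 of the 6 ZT16 controls were not well above background.

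Crtc2, the coactivator that CREB recruits once cyclic AMP has silenced the SIK kinases, was slightly higher in knockouts. Its main probe is at chr3:90067812-90067871. Controls gave 2.06 to 2.33 (median 2.10) at ZT8, 1.85 to 1.97 (median 1.94) at ZT12 and 1.63 to 2.09 (median 1.82) at ZT16. Knockouts gave 2.09 to 2.65 (median 2.45), 1.98 to 2.42 (median 2.26) and 1.95 to 2.19 (median 2.08). The groups were apart at ZT12 alone, where the lowest knockout, at 1.979, lay just above the highest control, at 1.974. Ratios were 0.24 (SE 0.090, adjusted p 0.0352), 0.32 (SE 0.090, adjusted p 0.00483) and 0.23 (SE 0.090, adjusted p 0.0462), or 1.18-, 1.25- and 1.17-fold. The ZT8 ratio of Crtc2 without knockout replicate 3 was 0.31 (adjusted p 0.00690). The ZT8 call was lost without any of 8 arrays (replicates 1, 2, 5 and 6 of knockouts and 3 to 6 of controls at ZT8), and the ZT16 call without any of 18. Both were also lost with slide as a fixed block (adjusted p 0.0578 and 0.0595), with no filter on dim probes (0.0672 and 0.0864), with only the compared groups in the fit (0.136 and 0.0954) and with the mean of its probes, where the ratios were 0.15 and 0.11 (0.203 and 0.341). Within wash batches the ratio ran from 0.12 to 0.33, from 0.28 to 0.37 and from -0.0075 to 0.32. The ZT16 value of -0.0075 is that of batch 1, with 1 control array. The dimmer Crtc2 probe A_55_P2112180 was not called at any time, with ratios of 0.057, 0.27 and -0.0013. Crtc2 fell from ZT8 to ZT16 in both genotypes, with changes of -0.30 (SE 0.090, adjusted p 0.0137) in controls and -0.31 (SE 0.090, adjusted p 0.00793) in knockouts. The control fall lost its call in the authors' processed values (adjusted p 0.0590) and with the mean of its probes (0.0583), and the knockout fall with only the compared groups in the fit (0.104). The difference between these changes was -0.018 (SE 0.13, adjusted p 0.964).

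Sik1, the kinase that holds CRTC2 in the cytoplasm and is itself a CREB target, was higher in knockouts at all 3 times. Its probe is at chr17:31981255-31981314. Control mice had levels of -1.13 to 0.47 (median -0.51) at ZT8, -0.85 to 0.37 (median -0.16) at ZT12 and -0.97 to -0.099 (median -0.17) at ZT16. Knockout mice had 0.49 to 1.47 (median 1.17), 0.54 to 1.85 (median 1.05) and -0.11 to 0.81 (median 0.22). The groups were apart at ZT8 and ZT12 and overlapped at ZT16. The ratios were 1.48 (SE 0.22, adjusted p 4.57e-06), 1.35 (SE 0.22, adjusted p 1.49e-05) and 0.56 (SE 0.22, adjusted p 0.0462), or 2.80-, 2.54- and 1.47-fold. Without knockout replicate 3 the ZT8 ratio of Sik1 was 1.59 (adjusted p 2.96e-06). Wash batch values lay at 1.20 to 1.93, at 0.88 to 1.81 and at 0.40 to 0.71, all above 0. The ZT16 call was the least firm, since it was lost without any of 17 of the 36 arrays, where the adjusted p reached 0.125, and with normexp, no filter on dim probes, no wash batch term or array weights (adjusted p 0.0593 to 0.0779). In knockouts Sik1 fell by 0.99 from ZT12 to ZT16 (SE 0.22, adjusted p 0.00273), and in controls that change was -0.21 (SE 0.22, adjusted p 0.751). The change of the ratio from ZT8 to ZT16 was -0.93 (SE 0.31, adjusted p 0.0628) and was not called. It was called without knockout replicate 3 at ZT8, at -1.04 (adjusted p 0.0272), and without any of 5 other arrays (replicates 3 and 4 of knockouts at ZT12, 6 of knockouts at ZT16, 6 of controls at ZT8 and 3 of controls at ZT16). It was also called under 6 other settings, among them the authors' processed values and the replicate block (adjusted p 0.0131 to 0.0471).

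Crem encodes a family of activators and repressors at cyclic AMP response elements, of which the inducible short form ICER is a repressor. It was higher in knockouts at all 3 times. On its main probe, on chromosome 18, controls lay at 0.065 to 0.46 (median 0.19) at ZT8, -0.034 to 0.26 (median 0.075) at ZT12 and 0.096 to 0.47 (median 0.33) at ZT16. Knockouts lay at 0.50 to 1.90 (median 1.49), 1.06 to 2.01 (median 1.38) and 0.73 to 1.70 (median 1.24). Every knockout array lay above every control array of its time, although knockout replicate 3 at ZT8, at 0.50, lay just above the highest control, at 0.46. The ratios were 1.20 (SE 0.17, adjusted p 1.89e-06), 1.31 (SE 0.17, adjusted p 3.68e-07) and 0.93 (SE 0.17, adjusted p 6.15e-05), or 2.30-, 2.47- and 1.91-fold. Without that array the ZT8 ratio of Crem was 1.39 (adjusted p 1.59e-08). Within wash batches it ran from 0.62 to 1.48, from 1.11 to 1.5 and from 0.51 to 1.35, above 0 in every batch. On this main probe no change with time was called in either genotype. A second probe to the same transcript, A_51_P423976, was called at each time (0.96, 1.12 and 0.80). Probe A_55_P2796359, annotated to another Crem transcript, gave 0.14 (SE 0.16, adjusted p 0.561) at ZT8, 0.59 (SE 0.16, adjusted p 0.00472) at ZT12 and 0.72 (SE 0.16, adjusted p 0.000780) at ZT16. Knockout levels on that probe were -4.08 to -2.83 at ZT8 and -2.69 to -2.17 at ZT16, so they rose without overlap. Control levels on it were -3.61 to -3.22 and -3.50 to -2.76 at these times, which overlapped. Probe A_52_P367026 was well above background on 6 arrays and not called, and the remaining Crem probe was not tested. Which of these transcripts is ICER cannot be read from the probe annotation.

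Nr4a1, an orphan nuclear receptor and immediate early gene of cyclic AMP and stress signals that activates gluconeogenic genes, had the largest ratios of the 9. In knockouts at each time and in controls at ZT8 it also had the widest spread between mice. Its probe is at chr15:101105071-101105130. Control levels spanned -0.53 to 2.49 (median -0.063) at ZT8, -1.02 to -0.26 (median -0.85) at ZT12 and -0.94 to -0.52 (median -0.70) at ZT16. Knockout levels spanned 1.76 to 5.06 (median 3.08), 1.03 to 3.90 (median 1.77) and 0.40 to 3.23 (median 1.38). The groups were apart at ZT12 and ZT16, and at ZT8 only control replicate 6, at 2.49, lay within the knockout range. The ratios of Nr4a1 were 3.01 (SE 0.55, adjusted p 7.79e-05), 2.89 (SE 0.55, adjusted p 0.000105) and 2.21 (SE 0.55, adjusted p 0.00196), or 8.07-, 7.40- and 4.63-fold. The exact permutation test of the 6 against 6 arrays gave p 0.00433 at ZT8 and 0.00216, the smallest it can give, at the other times. Without knockout replicate 3 the ZT8 ratio was 3.07 (adjusted p 0.000152). Within wash batches the ratio ran from 1.96 to 5.32 at ZT8, 2.63 to 3.11 at ZT12 and 1.98 to 2.51 at ZT16. The highest, 5.32, is that of batch 2, with 1 knockout array. The SD between mice was 1.31, 1.19 and 0.98 in knockouts and 1.13, 0.32 and 0.17 in controls. From ZT8 to ZT16 Nr4a1 fell by 1.91 in knockouts (SE 0.55, adjusted p 0.00815), and in controls the change was -1.11 (SE 0.55, adjusted p 0.144). The knockout fall lost its call with only the compared groups in the fit (adjusted p 0.0560). The difference between these changes was -0.80 (SE 0.78, adjusted p 0.621).

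The RefSeq promoter table (GRCm38.p6) held 9 start sites of 5 of the genes: Gcgr, Adra1b, Avpr1a, Pde4b and Nr4a1. The 250 bases before each start were searched on both strands for the cyclic AMP response element TGACGTCA, its core TGACG, the FoxO core GTAAACA and the E-box CACGTG. The full element was in 1.55% of 32851 promoters, the core in 17.8%, the FoxO core in 3.17% and the E-box in 6.02%; every full element also holds the core. None of the 9 windows held the full element, the FoxO core or the E-box. The windows that held the core TGACG are shown 5′ to 3′ along the gene's strand, with that core in capitals, because they belong to 3 of the genes that were higher in knockouts.
Nr4a1, chr15:101266596-101266845, plus strand: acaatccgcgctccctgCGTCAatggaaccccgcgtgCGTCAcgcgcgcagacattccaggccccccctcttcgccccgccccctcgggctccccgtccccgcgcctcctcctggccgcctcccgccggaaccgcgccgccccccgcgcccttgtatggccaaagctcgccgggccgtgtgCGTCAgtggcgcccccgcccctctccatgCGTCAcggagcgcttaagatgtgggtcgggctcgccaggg
Avpr1a, chr10:122448249-122448498, plus strand: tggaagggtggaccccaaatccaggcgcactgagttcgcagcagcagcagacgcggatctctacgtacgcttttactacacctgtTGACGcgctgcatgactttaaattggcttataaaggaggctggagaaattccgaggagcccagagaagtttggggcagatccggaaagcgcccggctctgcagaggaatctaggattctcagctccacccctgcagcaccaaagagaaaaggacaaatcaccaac
Pde4b, first of 4 starts, last 100 bases before it, chr4:102421455-102421554, plus strand: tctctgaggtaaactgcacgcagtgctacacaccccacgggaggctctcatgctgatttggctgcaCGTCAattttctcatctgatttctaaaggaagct
Nr4a1 had 4 copies, all on the minus strand and so read as CGTCA, at 233 to 229, 213 to 209, 69 to 65 and 40 to 36 bases before the start. Only 45 of the 32851 promoters, 0.137%, held 4 or more. Avpr1a had 1, at 165 to 161 bases before the start, and Pde4b had 1 at 34 to 30 bases. The windows of Gcgr, of both Adra1b starts and of the other 3 Pde4b starts held none of the 4 motifs. These are matches of letters and do not show binding, and the probes do not tell which Pde4b start was used.

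Over all genes, 34.9% to 41.6% were called between genotypes and 3.32% to 28.6% between times within a genotype. Time of day likewise moved fewer of the 9 genes than genotype did. In controls 2 changed from ZT8 to ZT12 (Pde3b up and Pde4b down, against 14.4% of all genes called), 1 from ZT12 to ZT16 (Avpr1a up, 3.32%) and 4 from ZT8 to ZT16 (Adra1b and Avpr1a up, Crtc2 and Pde4b down, 26.2%). In knockouts 1 changed from ZT8 to ZT12 (Avpr1a up, 12.7%), 1 from ZT12 to ZT16 (Sik1 down, 12.1%) and 4 from ZT8 to ZT16 (Avpr1a up, and Sik1, Crtc2 and Nr4a1 down, 28.6%). The Pde4b fall from ZT8 to ZT12 lost its call with no filter on dim probes, slide as a fixed block or only the compared groups (adjusted p 0.0693 to 0.0745). With knockout replicate 3 at ZT8 left out, 5 genes changed from ZT8 to ZT16 in knockouts, with Pde3b (-0.23, adjusted p 0.0458) added. The comparisons of 1 genotype share groups. No main probe was called for a genotype effect that differed between ZT8 and ZT12 (1.05% of all genes), between ZT12 and ZT16 (1.69%) or between ZT8 and ZT16 (9.33%), nor in the limma F test over the 3 times (7.88%). The unadjusted F p was under 0.05 for 3 of the 9, Avpr1a (0.0276), Sik1 (0.0124) and Pde4b (0.0146).

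Around these genes, a wider list of 121 receptors, G proteins, cyclases, kinases, phosphodiesterases, CREB partners, early genes, calcium pathway genes and desensitisation genes was examined, which includes the 9. It too was chosen with earlier results of these data known, so its counts and shares are a description. Of the 121, 113 were tested, and Glp1r, Adra1d, Adra2c, Adora2b, Adcy2, Adcy3, Adcy8 and Adcy10 were not. At ZT8 36 of the 113 were higher in knockouts and 11 lower, at ZT12 54 and 15, and at ZT16 48 and 18. Those called made up 41.6%, 61.1% and 58.4%, beside 34.9%, 41.6% and 39.4% of all genes. Over all genes 16.5%, 19.3% and 19.7% were higher and 18.5%, 22.3% and 19.7% lower. At ZT8 43 of the 113 were called without knockout replicate 3. The ZT8 values of the single lists and of their genes include that array. Without the 9 genes, 32 and 9, 48 and 12, and 42 and 16 of 104 were higher and lower. The median ratio of these 104 was 0.19, 0.34 and 0.24. Unlike the 9 genes, some genes of the wider list passed the filter on few arrays. Adcy1 and Adra2a, called higher at ZT12 and ZT16, were well above background on 10 and 12 of the 36 arrays. Whether such genes passed only through the groups where they were high was not examined, which limits the counts of higher genes.

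Among 14 hormone receptors tested, 4, 7 and 7 were higher and 2, 2 and 1 lower at ZT8, ZT12 and ZT16. The share called was 42.9%, 64.3% and 57.1%, beside 34.9%, 41.6% and 39.4% of all genes. Adrb3, the beta-3 adrenergic receptor, was higher at ZT16 by 1.89 (SE 0.30), after 0.47 and 0.49 at the earlier times, which were not called. Its ZT16 minus ZT8 difference, 1.42, was called with an adjusted p of 0.0321. From ZT8 to ZT16 Adrb3 changed by -1.40 (adjusted p 0.000658) in controls and by 0.017 (adjusted p 0.977) in knockouts. Adora1, the Gi-coupled adenosine A1 receptor, was called at ZT16 alone, with a ratio of 1.13 (SE 0.32). Its change from ZT8 to ZT16 was -1.76 (adjusted p 8.35e-05) in controls and -0.59 (adjusted p 0.179) in knockouts. Of 14 G proteins and adenylyl cyclases, 3, 6 and 4 were higher and 2, 2 and 3 lower, which is 35.7%, 57.1% and 50% called. At ZT8 that is near the share of all genes. The cyclases Adcy9, Adcy5 and Adcy4 were called at ZT12, with ratios of 0.74, 0.71 and 0.70, and at ZT16, with 0.90, 0.58 and 0.41.

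The protein kinase A and Epac list of 16 had 3, 7 and 6 genes higher and 1, 4 and 5 lower. At ZT8 its 25.0% called lay below the 34.9% of all genes, and at the later times 68.8% were called, beside 41.6% and 39.4%. Rapgef4, which encodes the cyclic AMP sensor Epac2, was higher at each time, by 1.11, 1.18 and 0.66 (SE 0.19). Akap11, an anchoring protein for the kinase, was higher by 0.35, 0.61 and 0.42. Prkar2b, a regulatory subunit, was called at ZT12 (0.61) and ZT16 (0.53) and stood at 0.35 at ZT8, which was not called. Of 16 phosphodiesterases, 5, 8 and 9 were higher and 0, 1 and 1 lower, and the lower one was Pde3b. Those higher at ZT12 and ZT16 include Pde3a, Pde7b and Pde10a, which were well above background on only 25, 16 and 24 of the 36 arrays. The share called was 31.2%, 56.2% and 62.5%, at ZT8 near that of all genes. Pde4d was higher at ZT8 (1.31, SE 0.33) and ZT16 (1.51), with 0.55 at ZT12, which was not called. Pde4a was higher at all 3 times, at 0.39, 0.51 and 1.02, and its ZT16 minus ZT8 difference of 0.63 had an adjusted p of 0.0418.

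In the list of 13 CREB, CRTC and SIK genes, 5, 7 and 6 were higher and 2, 1 and 1 lower, which is 53.8%, 61.5% and 53.8% called, beside 34.9%, 41.6% and 39.4% of all genes. Creb3l3, the liver-enriched factor CREBH, was lower at each time, by -0.43, -0.97 and -0.89 (SE 0.13). Of 15 genes of Gq, calcium and phosphorylase kinase, 4 were higher at each time and 4, 5 and 5 lower (53.3%, 60.0% and 60.0% called). Pygl, liver glycogen phosphorylase, was lower at ZT12 (-0.68, SE 0.11) and ZT16 (-0.73), and its ZT8 value of -0.28 was not called. Camk2d and the inositol trisphosphate receptor Itpr3 were higher at all 3 times, with ratios of 0.37, 0.49 and 0.69 and of 0.61, 0.64 and 0.50. Of 11 desensitisation genes, 4, 6 and 5 were higher and none lower (36.4%, 54.5% and 45.5% called, at ZT8 near the share of all genes). Rgs2, a brake on Gq signalling, was higher by 0.71, 0.98 and 0.87 (SE 0.27), the receptor kinase Grk3 (Adrbk2 on the array) by 0.57, 0.56 and 0.86, and beta-arrestin 2 (Arrb2) by 0.62, 0.56 and 0.68.

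The 16 cyclic AMP-induced early genes had the highest list medians, 1.05, 1.38 and 0.99, with 10, 11 and 9 genes higher and 0, 0 and 2 lower. The share called was 62.5%, 68.8% and 68.8%, beside 34.9%, 41.6% and 39.4% of all genes. At ZT8 the largest ratio was that of Nr4a2, the close relative of Nr4a1, at 3.51 (SE 0.45). It was 1.46 at ZT12, and 1.05 (adjusted p 0.0651) at ZT16. The Nr4a2 ratio differed between ZT16 and ZT8 by -2.46 (adjusted p 0.0122). Its knockout levels at ZT8 were widely spread, from -1.89 to 2.56 (SD 1.64), and the control levels ran from -3.23 to -1.91 (SD 0.48). The lowest knockout array there lay just above the highest control. Egr1, a growth and stress responsive early gene, was 0.75 at ZT8, which was not called, 3.19 (SE 0.49) at ZT12, the largest of the list then, and 2.19 at ZT16. From ZT8 to ZT12 Egr1 changed by -2.79 (adjusted p 0.000154) in controls and by -0.35 (adjusted p 0.726) in knockouts. From ZT8 to ZT16 it fell in both, with changes of -3.92 and -2.48. The 2 lower genes at ZT16, named after their values were seen, were the clock gene Per1 at -1.80 (SE 0.21) and the phosphatase gene Dusp1 at -0.86 (SE 0.34). Of the 12 genes of this list with a promoter in the table outside chromosome 18, 10 held the TGACG core in at least 1 window, beside 17.8% of all promoters. The first is counted per gene, over 13 windows, and the second per window, so the units differ. The list was drawn up as genes known to respond to cyclic AMP and also holds stress and growth factor responders, so these matches are a description of it.

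**Figure D4:**
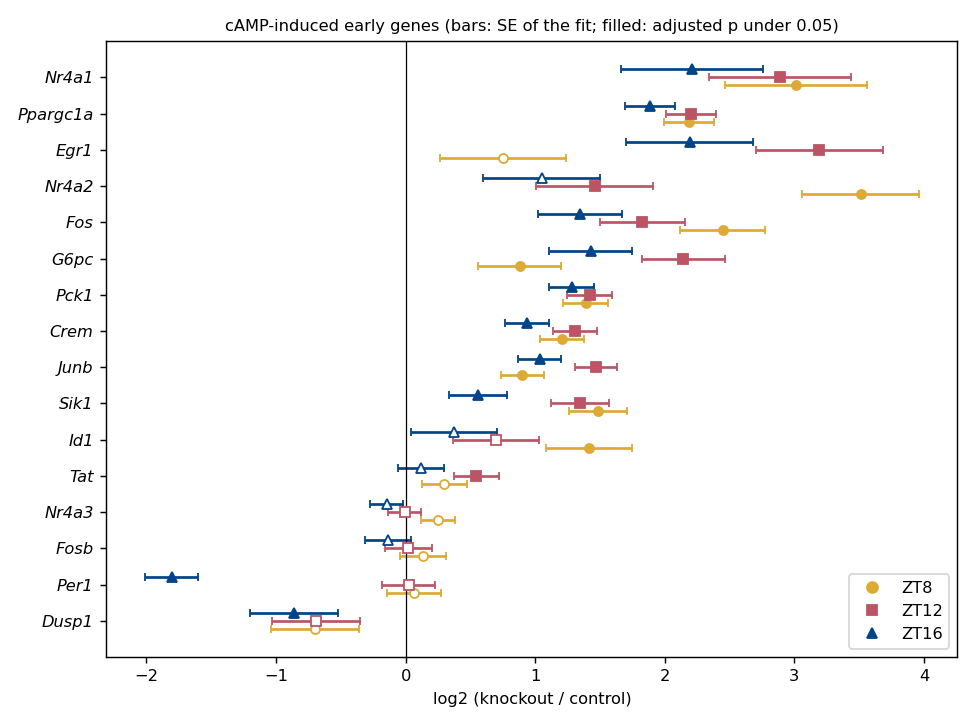
Log2 ratio of knockout to control (x axis) for the 16 cyclic AMP-induced early genes at ZT8 (circles), ZT12 (squares) and ZT16 (triangles), ordered by their mean ratio. Bars are the SE of the limma fit and filled symbols have an adjusted p under 0.05. Most filled symbols lie to the right of 0, and the filled symbols to the left are those of Per1 (-1.80) and Dusp1 (-0.86) at ZT16.

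For each gene whose group means spanned at least 1 log2 unit, the genes with the most similar pattern were sought among the 17811 genes that all 36 arrays measured well above background. Likeness was the root mean square difference of the 6 group means, each set centred on its own mean. Gcgr, Adra1b, Crtc2 and Pde3b spanned 0.49, 0.95, 0.53 and 0.68 and were not matched. Nearest to Avpr1a were Snai1 (0.106), Nol4l (0.109) and Zfp647 (0.113). Among the 3 nearest to Crem were Akr1b10 (0.0669) and Il2rb (0.0744). For Sik1 they were Xrn1 (0.0809), Gm6994 (0.113) and a noncoding RNA probe with no gene name (0.114). For Pde4b they were BC055324 (0.0931), Abca8b (0.0961) and Tcf19 (0.108). Nr4a1 had no comparably close match, its nearest being Gpcpd1 (0.389), Cables1 (0.399) and Ier3 (0.446), and its group means spanned 4.15.

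The tissue label was checked against marker lists. All 10 hepatocyte markers were measured. The log2 of their summed signal, which the brightest genes weigh most on, ran from 11.6 to 12.4 over the 36 arrays. Its medians were 12.1, 12.2 and 12.2 in controls and 11.9, 12.1 and 12.0 in knockouts. Of the 10, 1, 3 and 1 were higher in knockouts and 3 were lower at each time. The 3 lower ones, named after their values were seen, were Alb (-0.41, -0.35 and -0.39), Ttr (-1.12, -1.02 and -0.97) and Fah (-0.48, -0.56 and -0.81). The higher ones were Pck1 at each time (1.39, 1.42 and 1.28), and Tat (0.55) and Hnf4a (0.31) at ZT12 alone. Pck1 is also on the list of cyclic AMP-induced early genes. Of the 7 stellate cell and fibroblast markers 1, 3 and 3 were higher at ZT8, ZT12 and ZT16 and none was lower. Of 5 neutrophil markers tested 0, 0 and 2 were higher and 0, 0 and 1 lower, and of 4 red cell markers 0, 2 and 2 were higher and 1 was lower at each time. Of 6 bile duct markers 0, 0 and 1 were higher and 0, 1 and 0 lower, and of 5 fat cell markers none was higher and 1, 2 and 1 were lower. At ZT8 the endothelial list had no call and the stellate list 1 of 7, beside 16.5% of all genes higher. The part of these cells in the results of the 9 genes was not tested. Ncr1, of natural killer cells, was not well above background on any array.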

How the data were processed

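Liver RNA of 36 mice was hybridised to 1-colour Agilent SurePrint G3 arrays for mouse (GE v2, 8x60K). Spot intensity was extracted by the authors, per the file headers, with Agilent Feature Extraction 10.10.1.1, which subtracted background and removed spatial trends. Probe coordinates are mm9. Per the submitters' processing notes, limma was used. The deposited log2 table, normalized so that all 36 columns hold the same sorted values, served as an alternative.

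Values are log2 processed intensity minus the array's 75th percentile, without control spots. Probes well above background on at least 6 arrays were kept, with at least 4 values in each group. Tests were run with lmFit and eBayes of limma 3.58.1 under R 4.3.3, fitting 6 group means plus wash batch with 28 residual degrees of freedom. They were adjusted by Benjamini-Hochberg over 34771 probes, and were tested on simulated data. The number of arrays limits the precision. Exact permutation tests of 6 against 6 arrays cannot go below 0.00216.

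The 9 genes, the wider lists and the tests were chosen with earlier results of these data known. Named are the 9 genes, Insr, up to 3 genes per list with the largest called ratio and all arrays above background, and the 3 nearest patterns, of which 1 is not reported here. Alternatives covered normalization, background, filters, batch, slide, weights, probe choice, replicate number and leaving out each array.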

Additional observations from a re-analysis of the deposited data

Results flagged for a closer look

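Single arrays far from the rest of their group were found in 4 of 54 groups (9 genes in 6 groups), where chance gives about 1 in 20. Gcgr in control replicate 2 at ZT8 was the highest of its group at 7.06, with the nearest array at 6.97. Adra1b in knockout replicate 3 at ZT8 was the lowest at 3.32, with the nearest at 3.84. Sik1 in control replicate 3 at ZT16 was the lowest at -0.97, with the nearest at -0.20. Pde4b in control replicate 4 at ZT8 was the highest at 0.021, with the nearest at -0.63.

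The genotype effect on Pde4b probe A_52_P423247 differed between times in the limma F test (adjusted p 0.0277), and its ZT16 minus ZT8 difference was 0.98 (adjusted p 0.0125). On the main Pde4b probe the same difference was 0.96 (adjusted p 0.0603).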

How the results depend on the processing

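The number of the 9 genes called between genotypes ranged from 4 to 6 at ZT8, was 9 at ZT12 and ranged from 6 to 9 at ZT16 over the alternatives, and from 5 to 6, at 9 and from 6 to 8 with 1 array left out. In the wider list it ranged from 37 to 51, 62 to 70 and 60 to 70. Of 351 genotype ratios of the 9 genes under an alternative, 333 kept their sign and side of the threshold. Normexp correction, which adds an offset of 50, shrank the Insr ratios to -0.99, -0.94 and -0.91. A gene's ratio within 1 wash batch rests on 1 to 3 arrays a group, and 45 of 162 such values moved by over 1 SD. Dim probes with a signal near background carry wide errors. The causes of the changes below were not tested.

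Counts with few calls changed most. The F test called 1 of the 9 genes (0 in the report) with quantile normalization, normexp, the authors' table and array weights, and 0 to 1 with an array left out. The change of the genotype ratio from ZT8 to ZT16 was called for 1 gene with normexp, no wash batch term and array weights, for 2 with the authors' table and with probes well above background on all arrays, and for 0 to 1 with an array left out. Its change from ZT12 to ZT16 was called for 1 gene with normexp and the authors' table. From ZT12 to ZT16 in knockouts, 2 genes were called with quantile normalization, normexp, the authors' table, slide as a fixed block and array weights, and 1 to 2 with an array left out. From ZT8 to ZT12 in controls, 1 was called with no filter and with the mean of a gene's probes, 4 with array weights, and 1 to 3 with an array left out. From ZT12 to ZT16 in controls, 0 were called with no filter, slide as a fixed block and only the groups compared, and 0 to 1 with an array left out. From ZT8 to ZT12 in knockouts, 0 were called with no filter and only the groups compared, 2 with array weights, and 0 to 2 with an array left out. From ZT8 to ZT16, 2 were called in knockouts with only the groups compared, and 2 to 4 in controls with an array left out.

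Values near 0 changed sign. The Crtc2 difference between ZT16 and ZT8 was 0.012 with quantile normalization, 0.0024 with normexp and -0.089 to 0.045 with an array left out. The Adra1b change from ZT8 to ZT16 in knockouts was -0.024 with no wash batch term, -0.052 with slide as a fixed block, -0.012 with array weights and -0.084 to 0.067 with an array left out. With the mean of a gene's probes, the ZT8 ratio was 0.074 for Pde3b and -0.028 for Pde4b, and the Crem change in knockouts was 0.47, with a difference between genotypes of 0.12. Crtc2 at ZT16 was -0.0075 within wash batch 1. With an array left out, Pde4b at ZT8 ran from -0.026 to 0.20, its plain difference from -0.014 to 0.19, and the Gcgr change in knockouts from -0.065 to 0.11.

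The labels do not say whether a replicate number marks shared litters or days. Over 90 pairs of arrays with the same number, the median correlation of deviations was -0.0084 (-0.39 to 0.31), which cannot exclude pairing. With the replicate number as a block, 1 gene (Sik1, -0.99, adjusted p 0.0365) was called for the ZT16 minus ZT8 difference, and the Adra1b change in knockouts was -0.0071. No other count of calls moved by over 1.5 times under the replicate block.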
